A study of Arabidopsis thaliana with 21 samples.

Results

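Transcripts of the FLOWERING LOCUS C (FLC) group were followed in Arabidopsis embryos at the late heart stage. The group holds FLC itself (AT5G10140), its relatives MAF1 (AT1G77080), MAF2 (AT5G65050), MAF3 (AT5G65060), MAF4 (AT5G65070) and MAF5 (AT5G65080), the partner SVP (AT2G22540), the activator FRI (AT4G00650), and the silencing genes VIN3 (AT5G57380) and VRN5 (AT3G24440). These 10 genes, out of 26496 gene models with counts, were chosen by name, as a family and its regulators, at a time when expression values and fold changes of the same libraries were already known. Which of those values were in view is not recorded, so the adjusted p-values below describe the fit and are not independent evidence for the choice. Each gene had 1 counted model. The filter on low counts kept 8 of the 10 for testing, and MAF4 and MAF5 were removed by it.

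FLC is a MADS-box repressor of flowering that binds and holds down the floral activators SOC1 and FT, alone or with SVP and the MAF proteins. FRI raises FLC transcription as the scaffold of a nuclear complex, and long cold switches FLC off through Polycomb silencing that needs the PHD-finger proteins VIN3 and VRN5. That silenced state is known to be reset in each generation, with FLC switched on again in the early embryo, so that a seedling again needs cold.

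The study used mutants of ASIL1 and ASIL2, a related pair of trihelix transcription factors known to hold down seed maturation genes in Arabidopsis, and read RNA from hand-dissected embryos. There were 7 genotypes with 3 biological replicates each, 21 libraries in all. In the Columbia-0 ecotype these were the single mutants asil1-1 and asil2-1, the double mutant asil1-1 asil2-1 and the wild type, called Col-0 here. In Landsberg erecta they were the single mutant asil2-2 and the wild type, called Ler here. The double mutant asil1-1 asil2-2 carries a mix of both ecotypes, so it was set against each wild type, and at any 1 gene the ecotype and the mutations cannot be told apart in it. Growth was at 22 °C under 16 h of light for all genotypes, and no cold treatment is described. The sources used here do not give which lesion each allele carries or whether each is 1 line.

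ASIL1 was low in each genotype that carries asil1-1, at 1.66 ± 0.332 CPM in asil1-1, 3.7 ± 1.36 in asil1-1 asil2-1 and 3.95 ± 1.62 in asil1-1 asil2-2, against 37.7 ± 4.68 in Ler and 37.4 ± 2.31 in Col-0 (CPM is counts per 1 M counts of the scaled library, mean ± SD, n = 3 each). ASIL2 was at 9.76 ± 0.161 CPM in asil2-2, against 51.9 ± 1.45 in Ler. It was at 5.99 ± 6.86 CPM in asil1-1 asil2-2, with 0 to 13.5 CPM in its libraries. In the lines that carry asil2-1 it was near the wild type, with 41.8 ± 5.59 CPM in asil2-1 and 50.9 ± 9.77 CPM in asil1-1 asil2-1, against 51.2 ± 4.2 in Col-0, so the ASIL2 count does not check the asil2-1 label in either. Depth ran from 1.486 to 8.186 M counts per library. The libraries asil1-1 asil2-1 replicate 1, in which a single gene model took 45.66% of the counts, and asil1-1 asil2-2 replicate 2, the shallowest, stood apart, with median correlations of 0.75 and 0.851 with the other libraries, against 0.934 to 0.967 for the rest. Counts of called members without these libraries are given where they change. A difference in bulk embryos can come from fewer cells of a type or from less RNA per cell, and these cannot be told apart.

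The group is built around genes that resemble each other in sequence, which bears on how their reads could be shared. The first 120 coding bases of the 4 FLC-clade genes that were tested and of SVP, which encode most of the DNA-binding MADS domain, are given here from the TAIR10.1 genome of RefSeq, 5′ to 3′, with capitals where a base differs from FLC. They lie at chr5:3179220-3179339 on the minus strand for FLC, and on the plus strand at chr1:28955679-28955798 for MAF1, chr5:25982415-25982534 for MAF2, chr5:25987527-25987646 for MAF3 and chr2:9580417-9580536 for SVP.
FLC: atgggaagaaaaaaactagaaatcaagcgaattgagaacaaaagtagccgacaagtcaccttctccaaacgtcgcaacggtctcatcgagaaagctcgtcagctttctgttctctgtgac
MAF1: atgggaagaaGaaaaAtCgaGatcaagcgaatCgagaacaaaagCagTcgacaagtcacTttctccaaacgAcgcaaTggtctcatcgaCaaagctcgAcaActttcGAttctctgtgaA
MAF2: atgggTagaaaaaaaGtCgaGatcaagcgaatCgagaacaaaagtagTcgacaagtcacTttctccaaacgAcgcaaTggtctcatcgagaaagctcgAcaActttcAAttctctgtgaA
MAF3: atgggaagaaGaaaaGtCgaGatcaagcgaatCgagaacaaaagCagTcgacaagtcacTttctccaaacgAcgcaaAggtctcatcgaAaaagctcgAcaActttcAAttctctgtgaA
SVP: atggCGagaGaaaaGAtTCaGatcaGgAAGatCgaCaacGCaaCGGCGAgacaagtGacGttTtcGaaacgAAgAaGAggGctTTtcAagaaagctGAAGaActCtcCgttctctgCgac

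MAF1 and MAF3 each differed from FLC at 16 of these 120 bases, MAF2 at 14 and SVP at 43. Over the first 180 coding bases MAF2 and MAF3, which stand next to each other on chromosome 5, were 94.4% identical, MAF1 and MAF3 were 92.8% and MAF1 and MAF2 91.1% identical. FLC shared 82.2% to 85.0% with the 3 MAF genes, and SVP 60.6% to 63.3% with the 4 others. No stretch of 36 bases of the FLC exons occurs in another gene model, whereas 3.58% of such stretches of MAF1, 8.19% of MAF2 and 9.1% of MAF3 occur in another of the 3. At 50 bases the shares were 1.24%, 1.27% and 2.26%. The sources used here give neither the read length nor the treatment of reads that match several places, so a small part of the MAF1, MAF2 and MAF3 counts is uncertain.

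FLC spans chr5:3173382-3179448 with 7 exons, and an antisense long noncoding RNA, AT5G01675, is annotated across it at chr5:3173371-3179600. That RNA is not a counted model, and counting by strand is not stated, so FLC and antisense reads cannot be told apart. FRI lies at chr4:268901-271503 and overlaps the counted gene AT4G00651 at its end. An antisense RNA that is not a counted model, AT4G03675, is annotated inside FRI at chr4:270998-271192, so FRI and its antisense reads cannot be told apart either. VIN3, at chr5:23246395-23249504 on the minus strand, overlaps the counted gene AT5G57370 at its end.

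Per kilobase of exon, MAF2 and VRN5 were the most abundant of the 10 in embryos. The median over the 21 libraries was 20.3 CPM per kb for MAF2 and 20.1 for VRN5. FLC followed with 9.81 CPM per kb and MAF1 with 9.72. The order within the clade depended on the genotype. Per kb, FLC was above MAF2 in asil1-1 asil2-1, where MAF2 averaged 14.8 CPM per kb, and below MAF1 in asil2-2 (5.82 against 11.7). In Ler the libraries of FLC (3.38 ± 1.52), MAF1 (4.2 ± 0.659) and MAF3 (4.05 ± 1.04 CPM per kb, mean ± SD) overlapped, so their order there is not resolved. MAF3 had a median of 4.03 CPM per kb, FRI 3.7, SVP 2.69 and VIN3 2.63. MAF5 had 0.625 CPM per kb and MAF4 0.321. VIN3, which is known for its induction by long cold, was thus read in every library of plants for which no cold is described, with 16 to 70 counts per library.

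**Figure D1:**
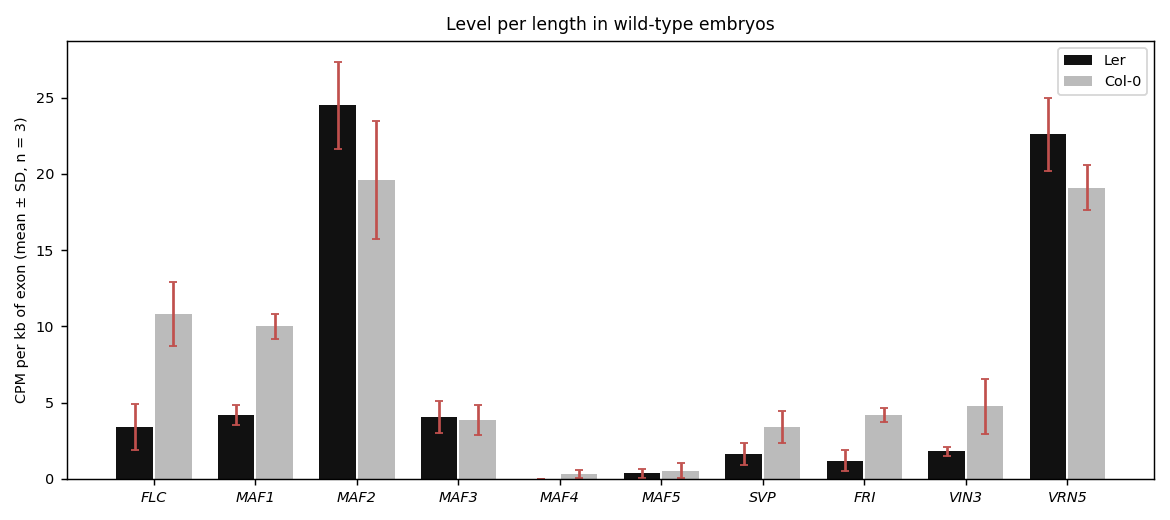
Level of each of the 10 genes in CPM per kb of exon in wild-type embryos, with Ler in black and Col-0 in grey (bars: mean, error bars: SD, n = 3). MAF2 and VRN5 stand highest, MAF4 and MAF5 near 0, and FLC, MAF1, FRI and VIN3 are lower in Ler than in Col-0.

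Between the wild types, FLC, its activator FRI, its relative MAF1 and its silencer VIN3 were lower in Ler than in Col-0 embryos. FLC, the central repressor, had 3.71, 5.0 and 1.85 CPM in the 3 Ler libraries, against 8.86, 13.1 and 11.8 CPM in the 3 Col-0 libraries. Every Ler library was below every Col-0 library. FLC fell by 1.68 ± 0.34 (SE) on the log2 scale (adjusted p = 0.0035 by the edgeR quasi-likelihood test, with the Benjamini-Hochberg method over all 18269 tested models).

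FRI, the scaffold of the FLC-activating complex, had 1.85, 4.2 and 1.48 CPM in Ler, against 9.74, 7.84 and 8.99 CPM in Col-0, again without overlap. It fell by 1.82 ± 0.35 on the log2 scale (adjusted p = 0.00201). MAF1, a repressor that works with SVP in the response to temperature, had 3.71, 5.0 and 4.07 CPM in Ler, against 10.6, 10.6 and 9.2 CPM in Col-0. The 3 Ler values were close to each other and below all Col-0 values, and MAF1 fell by 1.25 ± 0.31 (adjusted p = 0.0162). VIN3 had 3.71, 4.8 and 3.52 CPM in Ler, against 7.09, 9.54 and 15.0 CPM in Col-0. The Col-0 values were spread, with replicate 3 highest, and VIN3 fell by 1.39 ± 0.34 (adjusted p = 0.0145).

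With these genes, 4 of the 8 tested members were called lower in Ler and none was called higher, where 3.4% of all tested models were called lower and 4.96% in either direction. Without the 2 libraries that stood apart the same 4 members were called, and the models called in either direction were 2351 rather than 907. The libraries did not overlap for 5 of the 8, against 30.4% of all tested models. The median log2 fold change of the 8 was -1.15, against -0.005 over all tested models. The fifth gene without overlap was SVP, the MADS partner of FLC and MAF1, with 1.48, 3.8 and 3.52 CPM in Ler, against 8.19, 5.62 and 4.49 CPM in Col-0. Its log2 fold change of -1.05 ± 0.51 did not pass the test (adjusted p = 0.341). MAF2, known for delaying the response to short cold, had a fold change of 0.32 ± 0.23 on the log2 scale, and VRN5 one of 0.25 ± 0.16 (adjusted p = 0.548), so neither passed. MAF3 differed by less than its standard error.

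FLC and FRI passed with each Ler or Col-0 library left out in turn, and the MAF1 and VIN3 calls depended on single libraries. MAF1 missed the threshold without Col-0 replicate 1 (adjusted p = 0.055) or 2 (0.061), and without Ler replicate 1 (0.0876) or 3 (0.0768). VIN3 missed it without Col-0 replicate 3, with a log2 fold change of -1.06 (adjusted p = 0.133), and without Ler replicate 1 (0.0693) or 3 (0.0799).

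The asil2-2 and asil2-1 mutants, which also differ in ecotype, can be set side by side as well. FRI had 2.86, 2.25 and 2.43 CPM in asil2-2, against 12.2, 10.5 and 11.2 CPM in asil2-1. The groups lay far apart, with a log2 fold change of -2.16 ± 0.33 (adjusted p = 0.000212). FLC had 6.09, 7.89 and 4.22 CPM in asil2-2, against 10.2, 17.2 and 12.2 CPM in asil2-1. All asil2-2 values were below all asil2-1 values, and FLC fell by 1.11 ± 0.31 (adjusted p = 0.0419).

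FRI and FLC were thus 2 of the 8 tested members called lower, where 3.13% of all tested models were called lower and 4.74% in either direction. Without the 2 libraries that stood apart FLC and FRI were again called, and the models called in either direction were 2284 rather than 866. The libraries did not overlap for 7 of the 8, against 27.4% of all tested models. MAF1 and MAF3 differed by less than their standard error. VIN3 had 6.21, 8.6 and 5.84 CPM in asil2-2, against 4.03, 3.44 and 4.86 CPM in asil2-1. Here all asil2-2 values were above all asil2-1 values, and the log2 fold change of 0.74 ± 0.33 did not pass (adjusted p = 0.304). For SVP it was 0.78 ± 0.48, for VRN5 0.28 ± 0.15 and for MAF2 0.23 ± 0.23. The FLC call was lost without asil2-1 replicate 2, at -0.88 (adjusted p = 0.238), without asil2-1 replicate 3 (0.0861), and without asil2-2 replicate 1 (0.122) or 3 (0.214).

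**Figure D2:**
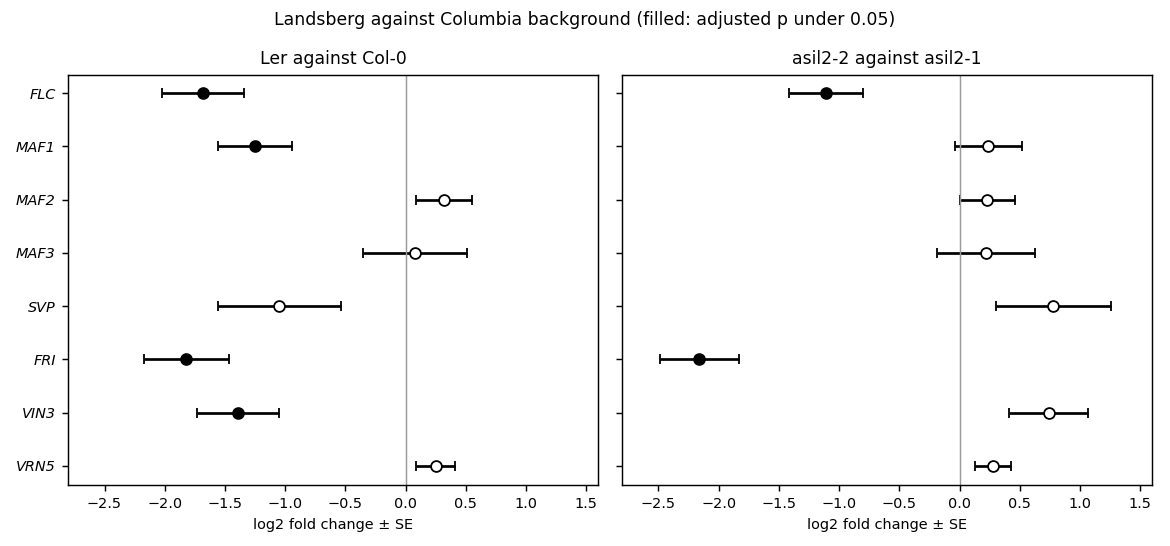
Log2 fold change of the 8 tested genes (horizontal axis, points with SE bars) for Ler against Col-0 on the left and asil2-2 against asil2-1 on the right, with filled points where the adjusted p is under 0.05. FLC and FRI are filled in both panels, and MAF1 and VIN3 in the left panel.

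In plants of both ecotypes FRI is known as a loss-of-function allele, with a deletion around the start of the gene in Ler and a truncating deletion in Col-0, and Ler is known to carry a transposon in the first FLC intron that makes its FLC allele weak. Neither lesion is read by these counts, and the processing notes name TAIR10, which is the Col-0 genome, so level, allele and mapping cannot be told apart in a difference between ecotypes. The promoters of the pair called in both ecotype comparisons are given here, as the 250 bases before the annotated start in TAIR10.1 of RefSeq, 5′ to 3′. They lie at chr5:3179449-3179698 on the minus strand for FLC and at chr4:268651-268900 on the plus strand for FRI, and capitals mark a match to CATGCA.
FLC promoter: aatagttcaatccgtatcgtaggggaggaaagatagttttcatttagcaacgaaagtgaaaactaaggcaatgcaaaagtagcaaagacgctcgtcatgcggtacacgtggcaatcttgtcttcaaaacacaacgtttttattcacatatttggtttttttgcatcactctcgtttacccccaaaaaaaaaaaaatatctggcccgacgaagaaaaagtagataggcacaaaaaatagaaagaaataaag
FRI promoter: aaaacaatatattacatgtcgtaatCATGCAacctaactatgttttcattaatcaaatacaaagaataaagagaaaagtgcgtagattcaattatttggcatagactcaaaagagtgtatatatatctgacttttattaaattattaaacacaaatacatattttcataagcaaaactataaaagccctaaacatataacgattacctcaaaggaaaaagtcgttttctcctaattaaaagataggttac

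Windows of this length were searched on both strands for CATGCA, the core of the RY element read by B3-domain factors, for CCAAT, the box read by NF-Y factors such as LEC1, and for GTGATT, a letter string related to sites of trihelix factors. CATGCA occurs in the FRI window, 225 bases before the start, in 1 of the 10 members, and in 8.41% of the 26074 promoters searched. CCAAT occurs in 5 of the 10 (MAF1, MAF2, MAF3, SVP and VIN3) and in 46.3% of all promoters. GTGATT occurs in 0 of the 10 and in 15.5% of all promoters, and none of the 3 strings is in the FLC window.

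The annotated genes on each side of the members were looked at in the same comparisons. Of 28 such neighbours, the nearest pair on each side, 20 were tested, and 0 were called in any of the 9 comparisons by edgeR, with 0 to 6 at an unadjusted p under 0.05. There was 1 such neighbour between the wild types. Between the wild types, the tested neighbours of FRI had log2 fold changes of 0.49 ± 0.19 in EMB3127, 0.2 ± 0.13 in KEA2 and 0.04 ± 0.23 in RH8. Those directly flanking FLC had 2.8 ± 1.36 in AT5G10130 and -0.07 ± 0.22 in AT5G10150.

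In the double mutant asil1-1 asil2-1, FLC was higher than in Col-0 in every library, and the difference did not pass the adjusted test. FLC had 23.0, 19.9 and 22.6 CPM in asil1-1 asil2-1, against 8.86, 13.1 and 11.8 CPM in Col-0. They were the 3 highest FLC values of the 21 libraries, the next being 17.2 CPM in asil2-1 replicate 2. The log2 fold change was 0.95 ± 0.30 (adjusted p = 0.183), and it ran from 0.80 to 1.07 with single libraries left out.

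By edgeR and by DESeq2, 0 of the 8 tested members were called in this comparison, and FLC was the 1 with an unadjusted p under 0.05. By edgeR 0.0219% of all tested models were called, which is 4, and 2942 had an unadjusted p under 0.05. DESeq2 called 273 models, and edgeR called 26 without the 2 libraries that stood apart, with no member among either. FLC was the 1 member without overlap, against 18.2% of all tested models. MAF2 had 15.9 ± 2.14 CPM in asil1-1 asil2-1, against 21.1 ± 4.16 in Col-0, with a log2 fold change of -0.42 ± 0.24. The other 6 differed by less than 1 standard error. VIN3, for one, had 12.9, 7.86 and 9.65 CPM in asil1-1 asil2-1, against 7.09, 9.54 and 15.0 CPM in Col-0, and the ranges overlapped.

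The single mutants in Columbia-0 showed 0 called members by edgeR, where 0.0328% of all tested models were called in asil1-1 and 0.0109% in asil2-1. DESeq2 called 15 models in asil1-1 and 5 in asil2-1, with 0 members in either. In asil2-1 it gave no adjusted p for VIN3, FRI or SVP, so its 0 there does not test these genes. In each single mutant 1 member, VIN3, had an unadjusted p under 0.05 by edgeR. FLC had 7.82, 11.7 and 11.7 CPM in asil1-1 and 10.2, 17.2 and 12.2 CPM in asil2-1, and both ranges overlapped that of Col-0. VIN3 was below every Col-0 library in both, with 4.93, 5.03 and 5.12 CPM in asil1-1 and 4.03, 3.44 and 4.86 CPM in asil2-1, against 7.09, 9.54 and 15.0 CPM in Col-0. Its log2 fold change was -1.06 ± 0.32 in asil1-1 (adjusted p = 1.0) and -1.35 ± 0.33 in asil2-1 (adjusted p = 0.815). Both values rest on the same 3 Col-0 libraries, and without Col-0 replicate 3 they were -0.73 and -1.01. VIN3 was the 1 member without overlap in asil1-1 (13.8% of all tested models), and VIN3 and FRI were the 2 in asil2-1 (11.8%). FRI had a log2 fold change of 0.36 ± 0.31 in asil2-1, SVP one of -0.49 ± 0.49, and MAF1 one of -0.29 ± 0.28 in asil1-1.

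In asil2-2 against Ler no member was called by edgeR, where 0.0712% of all tested models were called, and 4 members had an unadjusted p under 0.05. MAF1 had 10.5, 11.7 and 13.3 CPM in asil2-2, against 3.71, 5.0 and 4.07 CPM in Ler. The groups were well apart, with a log2 fold change of 1.47 ± 0.30 and an adjusted p of 0.0752. MAF1 passed under 4 other treatments of the counts, with adjusted p from 0.000456 without the 2 libraries that stood apart to 0.023 with only these groups fitted, and reached 0.584 with a single library left out.

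SVP had 7.4, 6.34 and 8.6 CPM in asil2-2, against 1.48, 3.8 and 3.52 CPM in Ler, also without overlap, with a log2 fold change of 1.34 ± 0.50 (adjusted p = 1.0). VIN3 had 6.21, 8.6 and 5.84 CPM in asil2-2, against 3.71, 4.8 and 3.52 CPM in Ler, with a log2 fold change of 0.78 ± 0.34. MAF1, SVP and VIN3 were the 3 members without overlap, against 13.0% of all tested models. These values rest on the same 3 Ler libraries as the lower values in Ler against Col-0. The comparisons are therefore not independent of each other. FLC overlapped, with a log2 fold change of 0.80 ± 0.35. FRI averaged 2.52 ± 0.313 CPM in asil2-2 and 2.51 ± 1.48 CPM in Ler (SD, n = 3 each).

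The mixed-ecotype double mutant asil1-1 asil2-2 had more FRI than Ler, at a level that overlapped Col-0. FRI had 9.5, 11.8 and 7.73 CPM in asil1-1 asil2-2, against 1.85, 4.2 and 1.48 CPM in Ler and 9.74, 7.84 and 8.99 CPM in Col-0. All 3 values were above all Ler values and overlapped the Col-0 values. Against Ler, FRI rose by 1.91 ± 0.35 on the log2 scale (adjusted p = 0.00289). It was the 1 member called there, where 2.16% of all tested models were called higher and 2.9% in either direction. It missed the threshold in a fit of only the compared groups, at 1.92 (adjusted p = 0.0926), and its adjusted p was 2.93e-05 at the lowest under the other treatments.

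Against Ler, FLC, MAF1 and VIN3 were also without overlap in asil1-1 asil2-2, so that 4 of 8 members were, against 23.9% of all tested models. FLC had 5.87, 11.8 and 9.04 CPM in asil1-1 asil2-2, against 3.71, 5.0 and 1.85 CPM in Ler, with a log2 fold change of 1.26 ± 0.36 (adjusted p = 0.0588, and 0.0165 by DESeq2). MAF1 had 7.25, 16.5 and 7.4 CPM in asil1-1 asil2-2, the highest being the shallow replicate 2, with a log2 fold change of 1.15 ± 0.32 (adjusted p = 0.0519, and 0.0168 by DESeq2) that was 0.79 without the 2 libraries that stood apart. VIN3 had 5.01, 10.5 and 9.37 CPM in asil1-1 asil2-2, with a log2 fold change of 1.00 ± 0.35 (adjusted p = 0.139). The comparisons of asil2-2 with Ler and of Ler with Col-0 use the same Ler libraries, so these rises are not separate from them.

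Against Col-0 no member was called by edgeR in asil1-1 asil2-2, where 2.28% of all tested models were called, and 1 member had an unadjusted p under 0.05. That was VRN5, with 60.1, 98.1 and 60.2 CPM in asil1-1 asil2-2, against 48.4 ± 3.7 CPM in Col-0 (SD, n = 3). It was the 1 member without overlap, against 21.5% of all tested models, and its log2 fold change was 0.55 ± 0.16 (adjusted p = 0.0734) and 0.31 without replicate 2. DESeq2 called it (adjusted p = 0.0296), as did edgeR without asil1-1 asil2-2 replicate 3 (0.0325), and its adjusted p ran up to 0.338 over the other treatments of the counts. The log2 fold changes of SVP (-0.53 ± 0.50), FLC (-0.42 ± 0.33), VIN3 (-0.40 ± 0.33) and MAF2 (0.25 ± 0.24) were little above their errors. SVP had 6.04, 0.0 and 4.77 CPM in asil1-1 asil2-2, and its 0 counts in replicate 2 allow a level of up to 1.97 CPM.

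The responses to the ASIL2 alleles can be compared between the ecotypes, as the log2 fold change of asil2-2 against Ler minus that of asil2-1 against Col-0. No member was called by edgeR in this difference, where 0.00547% of all tested models were called, and 3 members had an unadjusted p under 0.05. MAF1 had a difference of 1.49 ± 0.41 (adjusted p = 1.0), SVP one of 1.83 ± 0.70 (adjusted p = 1.0) and VIN3 one of 2.13 ± 0.47 (adjusted p = 0.307). DESeq2 called VIN3 (adjusted p = 0.0362), voom called VIN3 (0.0367) and MAF1 (0.0378), and edgeR without the 2 libraries that stood apart called MAF1 (0.0327). The adjusted p of both ran up to 1.0 with single libraries left out. The asil2-2 side was above Ler in all 3 genes, and the asil2-1 side below Col-0 in VIN3 and overlapping it in the other two.

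**Figure D3:**
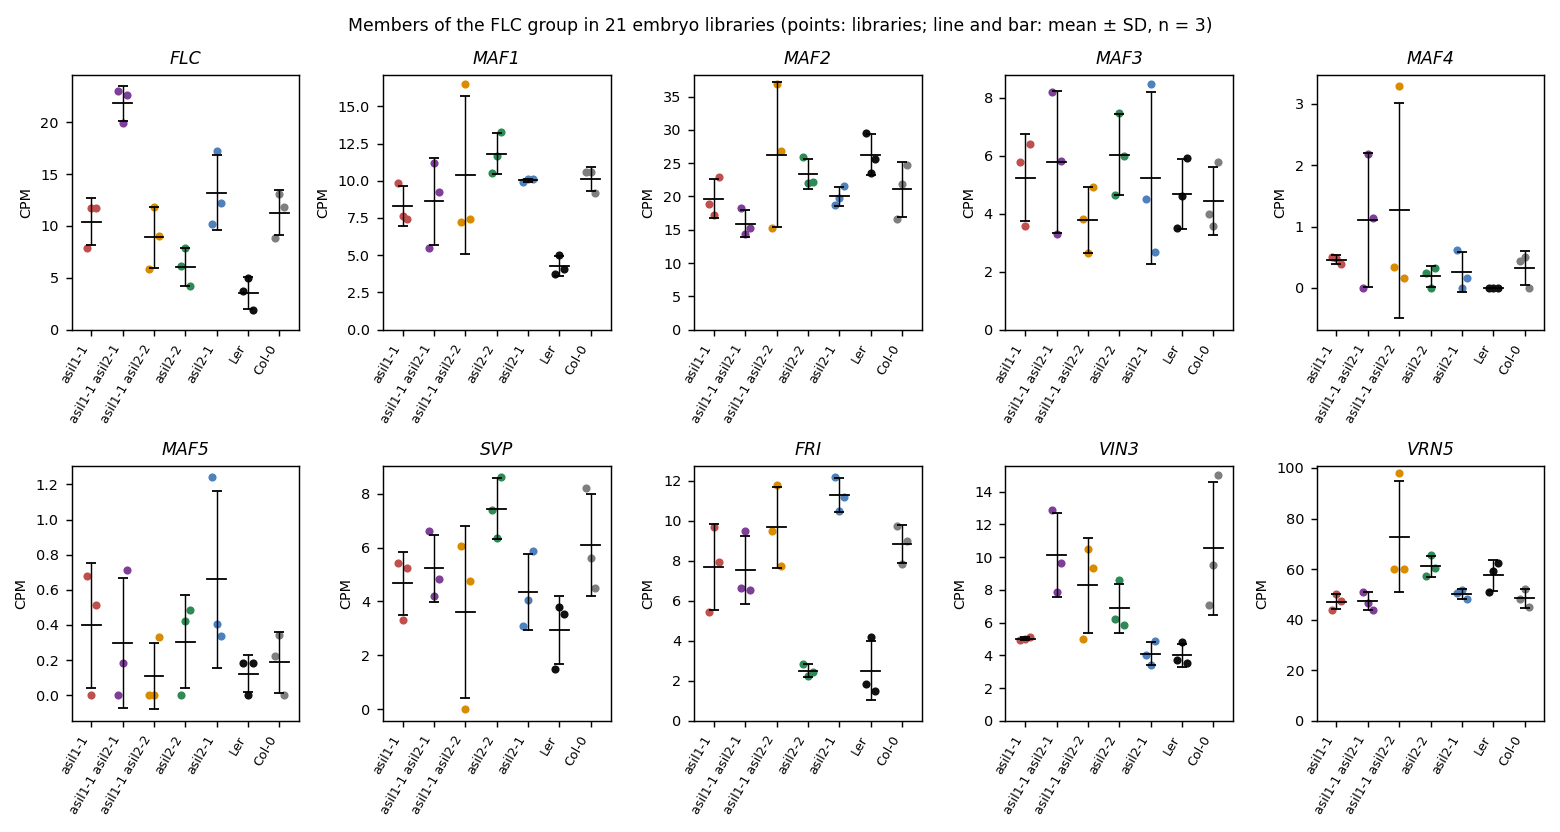
CPM of the 10 genes in each of the 21 libraries (vertical axes, 1 panel a gene), by genotype, with points for libraries and lines and bars for mean ± SD (n = 3). FLC is highest in asil1-1 asil2-1, FRI averages 2.52 CPM in asil2-2 and 2.51 CPM in Ler and is higher in the other genotypes, and MAF1 is lowest in Ler.

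Over all 7 genotypes, FLC ran in the order asil1-1 asil2-1 (21.8 ± 1.67 CPM), asil2-1 (13.2 ± 3.58), Col-0 (11.2 ± 2.18), asil1-1 (10.4 ± 2.22), asil1-1 asil2-2 (8.92 ± 2.99), asil2-2 (6.07 ± 1.84) and Ler (3.52 ± 1.58). The first stood clear of the next, and each of the others overlapped its neighbour in the order. FRI ran from 11.3 ± 0.867 CPM in asil2-1 through asil1-1 asil2-2, Col-0, asil1-1 and asil1-1 asil2-1 (7.56 ± 1.69), which overlap in that order, and then dropped without overlap to asil2-2 and Ler. MAF1 was lowest in Ler, at 4.26 ± 0.668 CPM, without overlap with the next, asil1-1 at 8.3 ± 1.35. VIN3 was at 6.88 ± 1.5 CPM in asil2-2, without overlap with the next, asil1-1 at 5.03 ± 0.0976, which in turn did not overlap asil2-1 at 4.11 ± 0.717. In MAF2, MAF3, SVP and VRN5 every genotype overlapped its neighbour in the order. MAF2 ran from 14.3 to 36.9 CPM over the libraries, MAF3 from 2.63 to 8.49 and VRN5 from 44.0 to 98.1.

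MAF4 and MAF5, the last genes of the MAF cluster on chromosome 5, were close to the limit of detection, with 52 and 39 counts in all 21 libraries and 7 libraries at 0 for each. MAF4 had 20 counts in asil1-1 asil2-1, with 0, 12 and 8 in its libraries, which is 1.33 CPM (exact 95% Poisson interval 0.81 to 2.05, counting error only), against 5 counts in Col-0, 0.332 CPM (0.108 to 0.775). It had 0 counts in Ler, which allows up to 0.19 CPM by the limit of 3 counts over the group. MAF5 had 12 counts in asil2-1, of which 8 were in replicate 1, 2 in Ler and 3 in Col-0. Its annotated coding sequence of 354 bases has no ATG start, so its count covers a shorter model than those of its relatives. The filter kept this pair out of the main test, and in the fit without it neither was called in any comparison.

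Among the 5 FRI complex genes, FRL1 (AT5G16320), a relative of FRI that acts with it, was called lower in Ler, with 3.98 ± 0.157 CPM against 9.06 ± 2.6 in Col-0 (log2 fold change -1.19 ± 0.31, adjusted p = 0.0253). It was also called lower in asil2-2, with 3.66 ± 0.0762 CPM, than in asil2-1 (-1.46 ± 0.30, adjusted p = 0.00426). The median of the 5 was -0.03 between the wild types. Without the 2 libraries that stood apart FRL1 was also called lower in asil1-1 asil2-2 than in Col-0 (-0.96 ± 0.28, adjusted p = 0.0465).

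By edgeR, 0 of 12 genes of the chromatin complexes that activate FLC, 0 of 7 of the autonomous pathway that represses it, 0 of 9 of the vernalization Polycomb group and 0 of 7 embryo activators and VAL repressors were called in any comparison. At an unadjusted p under 0.05 there were at most 2, 1, 3 and 2 of them in a comparison, in that order of lists. Without the 2 libraries that stood apart, some of these passed, in both directions within the autonomous pathway. Of 18332 models tested in that fit, 2351 were called in Ler against Col-0, 2284 in asil2-2 against asil2-1 and 969 in asil1-1 asil2-2 against Col-0. The list genes that passed are therefore given as values and not as a result about their lists. In Ler against Col-0 the list genes called were the FLC repressors FLD (-0.39 ± 0.11, adjusted p = 0.0221) and LD (0.31 ± 0.09, 0.0282), ELF7 of the activating complexes (0.29 ± 0.09, 0.0379) and FUS3, a B3 activator of seed maturation (0.58 ± 0.14, 0.00831). In asil2-2 against asil2-1 they were FLD (-0.36 ± 0.11, 0.0296), VRN1 (-0.37 ± 0.10, 0.0171) and VEL1 (-0.26 ± 0.08, 0.0454), and in asil1-1 asil2-2 against Col-0 SWN (0.46 ± 0.13, 0.0431).

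Of 14 targets and MADS partners of FLC, 7 were tested. TEM2 (RAV2, AT1G68840), a repressor of FT, was the 1 called in mutants against their wild type with all libraries. It had 51.6 ± 5.49 CPM in asil1-1 asil2-2, against 6.15 ± 1.71 in Ler and 13.5 ± 3.11 in Col-0, and 17.6 ± 3.67 CPM in asil2-2, against the same Ler value. Without the 2 libraries that stood apart TEM2 was also called higher in asil1-1 asil2-1 than in Col-0 (1.37 ± 0.21, adjusted p = 0.00368). Between the wild types TEM2 was called lower in Ler (-1.13 ± 0.28, adjusted p = 0.0175). Its relative TEM1 was called higher in Ler, with 18.5 ± 2.46 CPM against 8.99 ± 1.11 in Col-0 (1.04 ± 0.30, adjusted p = 0.043). FT, the mobile flowering signal, was called lower without the 2 libraries that stood apart, in Ler against Col-0 (-2.48 ± 0.73, adjusted p = 0.0272) and in asil2-2 against asil2-1 (-2.93 ± 0.70, adjusted p = 0.00738).

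Markers of the endosperm, the tissue around the embryo, also differed in summed level between genotypes. The summed level of 8 endosperm markers was 80.8 to 97.6 CPM in asil1-1 asil2-1, against 42.4 to 60.7 CPM in Col-0, and 17.8 to 33.4 CPM in Ler. It was 27.8 to 38.2 CPM in asil2-2, against 41.2 to 75.4 CPM in asil2-1, and these asil2-2 values overlapped those of Ler. In asil1-1 asil2-2 it was 40.6 to 69.8 CPM. The highest sum, 97.6 CPM, was that of asil1-1 asil2-1 replicate 1, which stood apart. Replicates 2 and 3 had 85.6 and 80.8 CPM. In this genotype MINI3 (8.58 ± 14.5 CPM), MEA (5.94 ± 7.71) and IKU2 (5.89 ± 8.76) had an SD above their mean. Their means in Col-0 were 0.362, 0.99 and 0.547 CPM. How far these markers carry the sum of replicate 1 was not tested. All 5 tested markers had positive fold changes in asil1-1 asil2-1 against Col-0, none called, and all 5 had negative ones in Ler against Col-0, with FWA, an imprinted homeodomain gene, called at -2.27 ± 0.45 (adjusted p = 0.00264). FWA was also called in asil2-2 against asil2-1 (-1.59, adjusted p = 0.02) and in asil1-1 asil2-2 against Ler (1.93 ± 0.47, adjusted p = 0.0247). In asil2-2 against asil2-1 the markers were split, with 2 of the 5 tested having positive fold changes and 3 negative ones. FIS2, for one, had 11.6 ± 1.87 CPM in asil2-2, against 7.03 ± 5.13 in asil2-1. When the 2 libraries that stood apart were left out PHE1 was also called lower in Ler than in Col-0 (-1.62) and, with ZOU (-1.09), in asil2-2 than in asil2-1 (-1.77). Among the markers, IKU2 was at 0 in Ler and MINI3 at 0 in asil2-1. The part of endosperm RNA in the FLC, FRI, MAF1 and VIN3 differences was not tested.

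**Figure D4:**
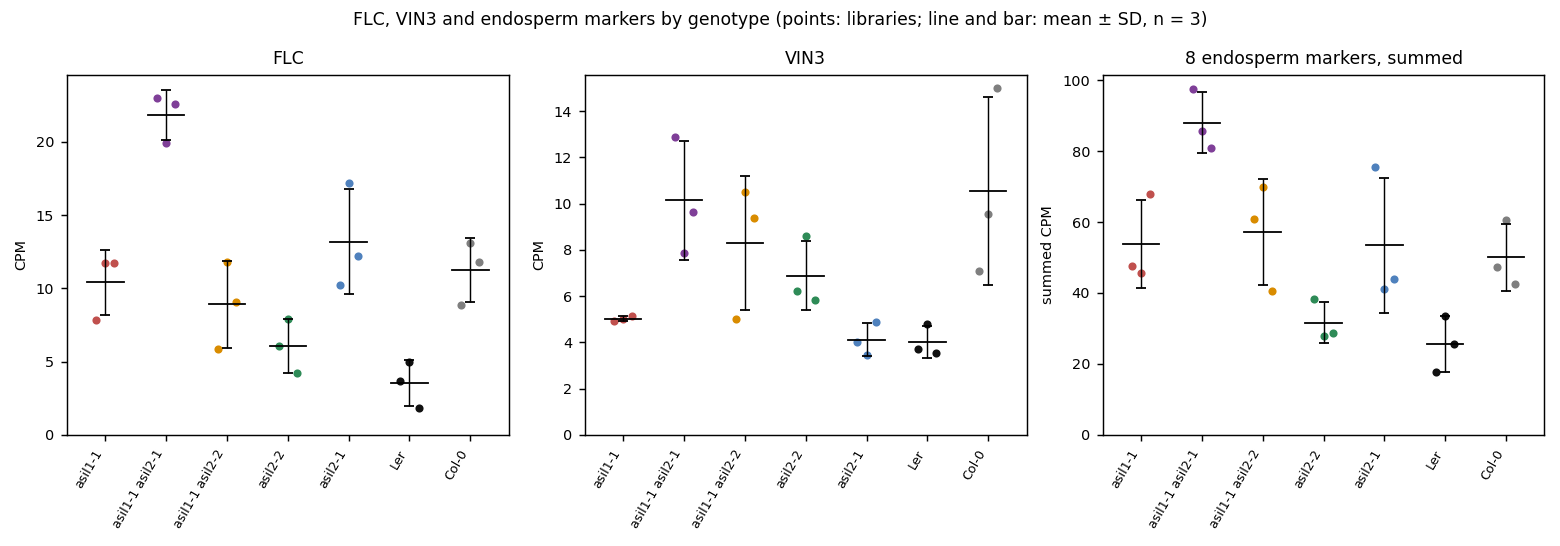
FLC, VIN3 and the sum of 8 endosperm markers in CPM (vertical axes) by genotype, with points for libraries and lines and bars for mean ± SD (n = 3). The 3 asil1-1 asil2-1 libraries are highest in FLC and in the marker sum, and the Ler libraries lie at the low end of both. The highest marker sum is that of asil1-1 asil2-1 replicate 1, which stood apart.

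Markers of the embryo proper summed to 802 to 909 CPM in Ler and 824 to 878 CPM in Col-0, and to 453 to 791 CPM in asil1-1 asil2-1. The lowest of these was the library that stood apart. The other asil1-1 asil2-1 libraries, at 783 and 791 CPM, were also below every library of Col-0. In asil1-1 asil2-2 they summed to 592 to 809 CPM, below every library of Col-0. Those of the seed coat summed to 190 to 292 CPM in asil1-1 asil2-2, above every library of Col-0, to 145 to 208 CPM in Ler and to 132 to 180 CPM in Col-0, with none of the 7 at 0 in any genotype. PMEI6, a seed coat mucilage gene, was called higher in Ler, with 4.46 ± 1.54 CPM against 0.404 ± 0.0552 in Col-0. It was also called higher in asil1-1 asil2-2 than in Col-0 (log2 fold change 4.31 ± 0.62) and in asil2-2 than in asil2-1 (2.13 ± 0.60). With the 2 libraries that stood apart left out PMEI6 was called higher in asil1-1 than in Col-0 (2.87). In that fit PER36, a seed coat peroxidase, was called higher in asil1-1 than in Col-0 (2.07) and lower in asil2-2 than in asil2-1 (-1.36). The list itself was split in some comparisons and uneven in others. With all libraries, 3 of the 7 seed coat markers were higher and 4 lower in asil1-1 than in Col-0, with a median log2 fold change of -0.34. In asil1-1 asil2-1 against Col-0, 6 were higher and 1 lower (median 1.06), with sums of 139 to 245 CPM. In asil1-1 asil2-2 against Col-0, 5 were higher and 2 lower (median 0.58), as in Ler against Col-0 (median 0.46). In asil2-2 against Ler, 1 was higher and 6 lower (median -0.34). In asil2-2 against asil2-1, 4 were higher and 3 lower, with sums of 101 to 181 CPM against 164 to 195 CPM. PLT1, a root meristem regulator, was called lower in asil1-1 asil2-2, with 17.9 ± 6.9 CPM against 38.5 ± 4.98 in Ler and 33.8 ± 2.59 in Col-0. The part of embryo and seed coat RNA in the FLC values of asil1-1 asil2-1 was not tested, nor that in the FRI and VRN5 values of asil1-1 asil2-2.

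Across the 21 libraries, members paired loosely. The highest correlation of log2 CPM between 2 members was that of FLC and FRI, at 0.73, and the lowest that of SVP and VRN5, at -0.597. FLC correlated with VIN3 at 0.521 and with MAF2 at -0.425. These points share ecotype and library, so the values are a description. They include the 2 libraries that stood apart. In asil1-1 asil2-2 replicate 2, SVP had 0 counts and VRN5 its highest value, 98.1 CPM. Correlations without these libraries were not computed.

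The gene models most like FRI over the 21 libraries were AT1G09995, with a correlation of 0.927, and the mitochondrial ATMG01090, with 0.925. ATMG01090 had 265 counts in the 3 asil1-1 asil2-2 libraries, against 0 counts in those of Ler and 229 in those of Col-0, and it also had 0 counts in asil2-2. Most like FLC were AT5G03560 (0.875) and GGH1 (0.874), a gamma-glutamyl hydrolase gene, which had 5.4 ± 0.837 CPM in Ler, against 15.6 ± 3.97 CPM in Col-0. The best matches were CRK29 for MAF1 (0.848), PKT4 for MAF2 (0.873), AT1G67470 for MAF3 (0.723), AT5G41690 for SVP (0.925), LOX6 for VIN3 (0.783) and GSTT2 for VRN5 (0.906). These matches too include the libraries that stood apart. Within asil1-1 asil2-2, AT5G41690 ran down to 0.0 CPM, as SVP did, and GSTT2 up to 55.9 CPM. How far such single libraries carry the matches was not tested.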

How the data were processed

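The authors deposited whole-number counts of reads per gene model, 1 table for each library, without the models that had no reads. The submitters' processing notes name Bowtie 0.12.7, edgeR 3.0.8 and the TAIR10 build. The sources used here give neither the counting rule nor the strand.

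The joined table held 26496 models, with unlisted models set to 0, of which 26100 matched a locus tag of TAIR10.1 (RefSeq). None of 21 replicate pairs was identical. All 21 libraries entered 1 edgeR 4.0.16 fit with 7 groups (R 4.3.3), after filterByExpr (minimum count 10, minimum total 15, 18269 models left) and TMM scaling. Contrasts were tested with the quasi-likelihood test, two-sided, with a call where the Benjamini-Hochberg adjusted p over all 18269 was under 0.05. CPM uses TMM-scaled sizes, with a prior count of 2 on the log2 scale. Standard errors are the fold change over the square root of F. Depth, from 1.486 to 8.186 M counts, limits the low members. A group at 0 was given a limit of 3 counts. Scripts were tested on simulated data.

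The members and gene lists were chosen with earlier results of these data known. Named genes were all members, ASIL1 and ASIL2, up to 4 called genes a list, called neighbours, and the 2 models most correlated with each tested member. FT, FLD and FUS3, the FRI and FLC neighbours, and the list genes given without the 2 libraries that stood apart were named after their values were seen. Alternatives were RLE scaling, no filter, a replicate block, DESeq2 1.42.0, voom with quality weights (limma 3.58.1), only the compared groups, the 2 libraries left out, and each library left out in turn.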

Additional observations from a re-analysis of the deposited data

Results flagged for a closer look

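In VIN3 the libraries of the ASIL2 alleles lay on opposite sides of their wild types in the 2 ecotypes. Neither side passed alone in edgeR (adjusted p = 1.0 for asil2-2 against Ler and 0.815 for asil2-1 against Col-0). Every asil2-2 library (6.21, 8.6 and 5.84 CPM) lay above every Ler library (3.71, 4.8 and 3.52 CPM), and every asil2-1 library (4.03, 3.44 and 4.86 CPM) lay below every Col-0 library (7.09, 9.54 and 15.0 CPM). The difference between the log2 fold changes, asil2-2 in Ler minus asil2-1 in Col-0, was 2.13 ± 0.47 (SE) and did not pass in edgeR (adjusted p = 0.307). By DESeq2 the adjusted p of VIN3 was 0.0362, and by voom with quality weights 0.0367. It was 0.334 with RLE scaling, 0.325 with no filter on low counts, 0.157 with only the compared groups, 0.071 without the 2 libraries that stood apart, and 0.296 to 1 with single libraries left out. Without Col-0 replicate 3, the highest library, the difference was 1.79. The alleles also differ in the remaining ASIL2 count, 9.76 ± 0.161 CPM in asil2-2 and 41.8 ± 5.59 CPM in asil2-1, so allele and ecotype cannot be told apart here.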

How the results depend on the processing

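Of 528 member fold changes under alternative processing, for the 39 that exceeded their standard error, 493 kept their direction and their side of the threshold, 12 lost and 21 gained a call, and 2 changed sign. Both sign changes were of MAF2 in asil1-1 asil2-2 against Col-0, which was 0.25 and became -0.094 with voom and -0.005 without asil1-1 asil2-2 replicate 2, within its range of -0.005 to 0.55 with single libraries left out. Called members in asil1-1 asil2-2 against Ler, 1 as reported, were 2 with RLE scaling (MAF1 and FRI), 2 without the 2 libraries that stood apart (the same pair), 3 with DESeq2 (FLC, MAF1 and FRI), 0 with only the compared groups, and 1 to 3 with single libraries left out. In asil2-2 against Ler, 0 as reported, there was 1, MAF1, with DESeq2, with voom, without the 2 libraries and with only the compared groups. In asil1-1 asil2-2 against Col-0, 0 as reported, there was 1, VRN5, with DESeq2, and 0 to 1 with single libraries left out. In the difference of asil2 responses, 0 as reported, there was 1 with DESeq2 (VIN3), 2 with voom (MAF1 and VIN3) and 1 without the 2 libraries (MAF1). With single libraries left out, the 4 members called in Ler against Col-0 became 2 to 4, and the 2 in asil2-2 against asil2-1 became 1 to 2. With voom asil2-2 against asil2-1 had 3 (FLC, FRI and VRN5, the last at an adjusted p of 0.0385), where 2428 of 18269 models were called. Over all models, calls without the 2 libraries were 2351 rather than 907 in Ler against Col-0, 2284 rather than 866 in asil2-2 against asil2-1, 969 rather than 417 and 915 rather than 529 in asil1-1 asil2-2 against Col-0 and Ler, 48 rather than 13 in asil2-2 against Ler, 35 rather than 6 in asil1-1 and 26 rather than 4 in asil1-1 asil2-1 against Col-0, and 11 rather than 1 in the difference of responses. With DESeq2 they were 273 in asil1-1 asil2-1, 15 in asil1-1, 5 in asil2-1 (2 as reported) and 806 in asil1-1 asil2-2 against Col-0, 24 and 1028 in asil2-2 and asil1-1 asil2-2 against Ler, and 11 in the difference. With voom, 47 models were called in asil2-2 against Ler and 15 in the difference. With RLE scaling, 557 were called in asil1-1 asil2-2 against Ler. The 2 libraries belong to no group compared in Ler against Col-0 or in asil2-2 against asil2-1. The groups of a fit share 1 estimate of the spread. In Ler against Col-0, MAF1 stayed at -1.25, with an SE of 0.306 with all libraries and 0.205 without the 2. FLC was at -1.683 (SE 0.343) and -1.689 (SE 0.321). The causes of the changes in calls were not tested.

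Same-numbered libraries of different genotypes deviated together in 21 of 63 pairs at a correlation over 0.1 (range -0.122 to 0.334), and 17 of 21 libraries correlated best with a library of their own number. The labels state no shared batch, so the numbers were not taken as pairing. With a replicate block, 3 members were called in asil1-1 asil2-2 against Ler (FLC at an adjusted p of 0.0289, MAF1 at 0.0451, and FRI), where 622 models were called rather than 529. VIN3 had an adjusted p of 0.351 in the difference of asil2 responses, and the other counts of called members stayed within 1.5 times.

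Depth limits the low members: MAF4 and MAF5 were removed by the filter, and neither was called without it. SVP was at 0 in the shallowest library, asil1-1 asil2-2 replicate 2, where 3 counts make 1.97 CPM. It had 6.04 CPM in replicate 1 and 4.77 CPM in replicate 3, and the cause of the 0 was not tested.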
